A study of Mus musculus with 7 samples.

Results

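Lysosome and autophagy genes were followed in mouse CD8+ T cells exposed for 48 h to small extracellular vesicles (sEVs) from a leukemic or a healthy spleen. The group held 44 of the 55367 genes in the count table, chosen by gene symbol: 26 lysosomal genes and 18 autophagy genes. The CD8+ T cells were sorted from spleens of mice of the strain Foxp3 YFP/cre, in which the Foxp3 locus drives YFP and Cre in regulatory T cells, and this strain was shared by both groups. In 4 libraries (labelled CD8_EV_Ctrl) the cells received sEVs from the microenvironment of healthy control spleens (HCME-sEVs). In 3 libraries (labelled CD8_EV_TCL1) they received sEVs from the leukemia microenvironment (LME-sEVs), that is, from spleens of leukemic Eμ-TCL1 mice, a model of chronic lymphocytic leukemia in which a human TCL1 transgene is expressed in B cells. The labels give 100 µg/mL of sEVs for both groups, whereas the study's methods say that the amount followed what each kind of spleen contained, so it is not certain that the groups received equal amounts. Per the study's methods, CD8+ T cells were cultured on anti-CD3 with CD28 antibody and IL2, so both groups were activated cells. The labels give no age, and the methods describe the mice, unless stated otherwise, as young adults of both sexes, matched within an experiment. There was no group without vesicles, and the labels do not say whether libraries of a group came from separate mice, cultures or vesicle preparations, so p-values measure the spread between these libraries.

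Lysosomes are acidic compartments in which hydrolases break down proteins, glycans and lipids delivered by endocytosis, by vesicle uptake and by autophagy. In autophagy, a membrane nucleated by the ULK1 and Beclin 1 complexes grows around cytoplasm, is marked by lipid-bound ATG8 proteins (the LC3 and GABARAP families) and fuses with lysosomes. In cytotoxic T cells lysosomes also take on a secretory role, as the granules that hold granzymes and perforin are lysosome-related. Many lysosome and autophagy genes are targets of the transcription factors TFEB and TFE3, which are regulated to a large extent by phosphorylation and movement into the nucleus, and which bind a variant of the E-box CACGTG.

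The E-box letters are shown first, because they are the sequence by which TFEB and TFE3 bind, although most of these genes did not hold them. RefSeq promoter windows (build GRCm38.p6, 250 bases before to 50 bases after the gene start) were matched for 37 of the 44 genes, some with a window at each of several RefSeq starts. A gene counts as holding a motif where any of its windows does. No window was matched for Npc1, Ctsb, Rb1cc1, Becn1, Atg12, Atg16l1 and Map1lc3a, so these genes were not searched. The E-box letters CACGTG, which read the same on both strands, were found in 8 of 24 lysosomal windows (33.3%) and 3 of 13 autophagy windows (23.1%), against 8.09% of windows of all 27025 genes. The longer form GTCACGTG, searched with its reverse complement CACGTGAC and always containing the E-box, was found in 7 of 24 lysosomal windows (29.2%: Lamp1, Mcoln1, Ctsa, Ctsd, Lgmn, Gla and Glb1) and 2 of 13 autophagy windows (15.4%: Atg3 and Atg7), against 2.55% of all genes. These letters were chosen after other letter strings had been tried, and a match is a description of the window and not a measured binding site. In Ctsa, Atg7 and Lgmn the match lay at a RefSeq start inside the gene, downstream of the start that GENCODE gives, and these windows are not shown. The Ctsd match shown also lay inside the gene, downstream of its GENCODE start at chr7:142388038. Another Ctsd match, not shown, lay upstream of that start. The windows below show 1 match per gene in capitals (others stay in lower case) with up to 20 bases on each side, read along the strand of the gene, with the position of the first capital counted from the RefSeq start.
Lamp1 (chr8:13159113-13159160, plus strand, -28): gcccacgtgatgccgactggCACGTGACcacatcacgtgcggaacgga
Ctsd (chr7:142387898-142387945, minus strand, -98): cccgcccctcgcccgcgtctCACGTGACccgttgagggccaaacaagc
Mcoln1 (chr8:3500426-3500473, plus strand, -73): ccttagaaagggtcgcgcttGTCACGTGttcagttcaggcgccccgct
Glb1 (chr9:114401008-114401055, plus strand, -50): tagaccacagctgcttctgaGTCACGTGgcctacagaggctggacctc
Atg3 (chr16:45158713-45158760, plus strand, -96): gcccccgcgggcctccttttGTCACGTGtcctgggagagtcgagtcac

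Counts were scaled by TMM and are given as CPM, the count of a gene relative to the scaled total of its library, and the LME-sEV libraries were compared with the HCME-sEV libraries by edgeR's quasi-likelihood test over the 12623 genes whose counts averaged 5 or more across the libraries. A gene was called where its Benjamini-Hochberg adjusted p over all those genes (edgeR FDR) was under 0.05. Total counts ran from 3689831 to 5030522 per library, so that 3 counts correspond to 0.582 to 0.807 CPM. Of the markers of the sorted cells, Cd8a lay between 341 and 435 CPM and Cd8b1 between 278 and 363 CPM in every library. Cd4 had at most 3 counts and Foxp3 at most 1. Transcripts used as markers of other cells were also present and are given at the end, among them Ighm at 220 to 325 CPM. The source of these transcripts was not tested. Of all genes tested, 473 (3.75%) were called higher with LME-sEVs and 658 (5.21%) lower. This split became 614 higher and 465 lower when libraries were scaled by their totals alone. The median log2 fold change over all genes was 0.01. At an unadjusted p under 0.05 by edgeR, 1316 of the 12623 genes were higher and 1548 lower, far more than the calls.

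Called changes in the lysosome and autophagy genes were few and small. Of the 43 genes that passed the minimum, 4 were called higher with LME-sEVs: the acid lipase Lipa, the ATG8 genes Map1lc3b and Gabarapl2, and the conjugation gene Atg12, by 1.24 to 1.35 times. None was called lower by edgeR, where 1 gene (Atg3) was lower at an unadjusted p under 0.05. None of the 43 passed both the FDR and a log2 fold change beyond 1, a pair of criteria met by 1.28% of all genes. The 4 calls make up 4% of the 25 lysosomal genes tested (1 gene) and 16.7% of the 18 autophagy genes (3 genes), to be read against the 3.75% called higher over all genes. Leaving out a single library ended each of these 4 calls for at least 3 of the 7 libraries, as given with each gene.

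**Figure D1:**
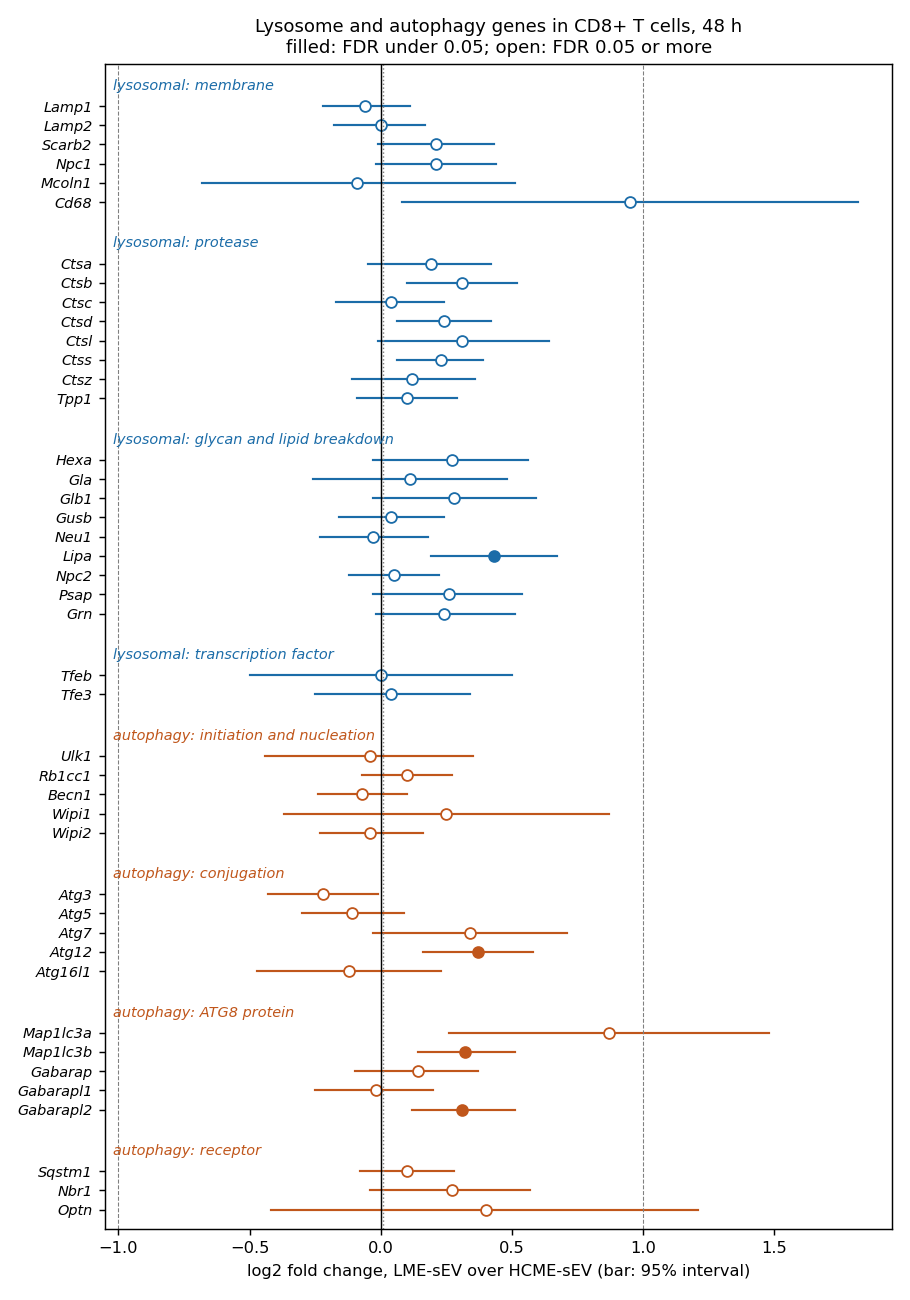
Log2 fold change of LME-sEV over HCME-sEV libraries (horizontal axis; bar, 95% interval of the edgeR fit) for the 43 tested genes, grouped by role; blue, lysosomal; orange, autophagy; filled circles, FDR under 0.05; dashed lines, a log2 fold change of 1 in either direction; dotted line, median of all genes tested. Only Lipa, Atg12, Map1lc3b and Gabarapl2 are filled, all between 0.31 and 0.43, and the widest intervals belong to the genes with the fewest counts, such as Cd68 and Optn.

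Among the lysosomal genes, 20 of 25 had a log2 fold change above 0, with a median of 0.19 and a range of -0.09 to 0.95, whereas 51.5% of all genes were above 0. With other scalings 21 to 23 of the 25 were above 0. In 6 of them (Ctsb, Ctsd, Ctss, Npc1, Lipa and Cd68) all 3 LME-sEV libraries lay above all 4 HCME-sEV libraries, a pattern found in 9.49% of all genes, and none had all LME-sEV libraries below, found in 10.8% of all genes. The summed level of the lysosomal genes was 1811, 1703, 1709 and 1858 CPM in the HCME-sEV libraries and 1958, 1957 and 1887 CPM in the LME-sEV libraries. The sums did not overlap, although the highest HCME-sEV library and the lowest LME-sEV library lay close together. A bulk library cannot tell more RNA per cell from a larger share of cells that carry the RNA.

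Lipa (ENSMUSG00000024781.16, chr19:34492318-34527474 on the minus strand, GRCm38 with GENCODE vM21 annotation) encodes the lysosomal acid lipase, which frees cholesterol and fatty acids from lipids taken up by the cell. It reached 28.2, 28.9, 31.5 and 26.8 CPM with HCME-sEVs (mean 28.8 ± 1.97, SD, n = 4) and 39.3, 34.2 and 42.7 CPM with LME-sEVs (38.7 ± 4.28, SD, n = 3). Every LME-sEV library was above every HCME-sEV library, and the log2 fold change was 0.43 with an SE of 0.12 (edgeR FDR = 0.0252). The FDR rose to 0.0601 without HCME-sEV library 2, 0.0699 without HCME-sEV library 4, 0.0639 without LME-sEV library 1 and 0.164 without LME-sEV library 3, and DESeq2 gave an adjusted p of 0.0611. Its 300-base promoter window (chr19:34527425-34527724, minus strand), printed because it belongs to the only lysosomal member called, did not hold the letters CACGTG.
Lipa: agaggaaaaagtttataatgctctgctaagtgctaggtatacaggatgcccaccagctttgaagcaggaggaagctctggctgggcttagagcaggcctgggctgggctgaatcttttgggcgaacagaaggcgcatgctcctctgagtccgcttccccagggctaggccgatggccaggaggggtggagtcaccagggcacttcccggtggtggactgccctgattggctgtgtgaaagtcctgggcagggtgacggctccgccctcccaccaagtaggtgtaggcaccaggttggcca

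The remaining enzymes and cofactors of glycan and lipid breakdown did not pass the test. Hexa and Glb1, which cleave hexosamine and galactose from glycolipids, had log2 fold changes of 0.27 and 0.28 (edgeR FDR = 0.275 and 0.272). Psap, the precursor of the saposins that present lipids to these enzymes, spanned 108 to 185 CPM with HCME-sEVs and 153 to 199.6 CPM with LME-sEVs, with a log2 fold change of 0.26 and the wide SE of 0.14 (edgeR FDR = 0.281). Its HCME-sEV libraries alone differed among themselves by more than the group means did. Grn, the progranulin gene, stood at 0.24 (edgeR FDR = 0.272), with HCME-sEV library 4 at 37.2 CPM among the LME-sEV libraries. Gla, Gusb and Neu1, which cleave galactose, glucuronic acid and sialic acid, lay at 0.11, 0.04 and -0.03, and Npc2, which carries cholesterol out of the lysosomal lumen, at 0.05, from 345 to 429.9 CPM over the 7 libraries.

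The lysosomal proteases leaned one way without a call. All 8 that were tested had a log2 fold change above 0, from 0.04 to 0.31 with a median of 0.21. By edgeR 0 were called, with 3 (Ctsb, Ctsd and Ctss) higher at an unadjusted p under 0.05, and DESeq2 called none. Over all 12623 genes tested, 1316 were higher at that p. Scaling by library totals alone called these 3 (edgeR FDR = 0.0323, 0.037 and 0.048), and Ctsb was also called with upper-quartile scaling (0.0419), with filterByExpr (0.0473) and without HCME-sEV library 3 (0.0307). Their summed level was 564 to 598 CPM with HCME-sEVs and 652 to 668 CPM with LME-sEVs. Ctsb, a cysteine cathepsin, reached 57.8, 48.7, 62.4 and 58.4 CPM with HCME-sEVs and 70, 74.8 and 66.9 CPM with LME-sEVs. The groups did not overlap and the log2 fold change was 0.31 with an SE of 0.099, just outside the threshold (edgeR FDR = 0.0545), and annotated exons of Fdft1 overlap it on the opposite strand. Ctsd, the main aspartic protease of lysosomes, reached 129, 119.6, 109.6 and 127 CPM with HCME-sEVs and 139, 156 and 136 CPM with LME-sEVs. Again the groups did not overlap, with a log2 fold change of 0.24 (SE 0.086, edgeR FDR = 0.0843); an annotated gene, Gm49369, shares exons with it on the same strand. Ctss, a cathepsin of antigen-presenting cells, was similar, at 129.6 to 149 CPM with HCME-sEVs and 155 to 171 CPM with LME-sEVs (log2 fold change 0.23, edgeR FDR = 0.0888).

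Ctsc, cathepsin C, which removes the propeptide of granzymes, reached 93.0, 107, 83.8 and 93.6 CPM with HCME-sEVs and 85.8, 101 and 103 CPM with LME-sEVs. The groups overlapped almost completely, with a log2 fold change of 0.04 and a 95% interval of -0.17 to 0.24 (edgeR FDR = 0.874). Ctsa, Ctsl and Ctsz, a serine carboxypeptidase and a pair of cysteine cathepsins, had log2 fold changes of 0.19, 0.31 and 0.12, and the tripeptidyl peptidase Tpp1 0.10, with an edgeR FDR between 0.229 and 0.574. Lgmn, the asparaginyl endopeptidase, had 1 to 9 counts per library and was the only member below the minimum, so it was not tested.

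The genes of the lysosomal membrane were mixed. Lamp1, whose protein coats lysosomes and appears on the surface of degranulating T cells, reached 201, 190.1, 176 and 186 CPM with HCME-sEVs and 169, 193 and 181 CPM with LME-sEVs. Lamp2, also needed for autophagosome fusion, reached 82.2, 85.4, 85.6 and 84.7 CPM with HCME-sEVs and 84.8, 87.4 and 80.7 CPM with LME-sEVs. For neither did the groups separate: the log2 fold changes were -0.06 for Lamp1, with a 95% interval of -0.22 to 0.11, and 0.00 for Lamp2, with -0.18 to 0.17 (edgeR FDR = 0.734 and 0.985). Scarb2, the receptor that brings glucocerebrosidase to lysosomes, and Npc1, the cholesterol exporter, both had a log2 fold change of 0.21 (edgeR FDR = 0.241 and 0.266). Mcoln1, a calcium channel, had 14 to 28 counts per library and a log2 fold change of -0.09 with an SE of 0.29.

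Cd68, a lysosomal glycoprotein best known from macrophages, had the largest point estimate of the 43 genes and very few counts, 3 to 19 per library. It reached 2.17, 0.76, 2.13 and 1.40 CPM with HCME-sEVs and 2.42, 4.27 and 2.71 CPM with LME-sEVs. The groups did not overlap, but the log2 fold change of 0.95 had an SE of 0.42 and was not called (edgeR FDR = 0.173). Of 20 myeloid markers, 5 passed the minimum, with a median log2 fold change of 0.30, and 0 were called by edgeR or DESeq2 (1 was higher at an unadjusted edgeR p under 0.05). Their summed level was 111 to 153 CPM with HCME-sEVs and 147 to 186 CPM with LME-sEVs, most of it from Cst3, while the macrophage markers C1qa and C1qc were at 0 counts in every library. Their part in the Cd68 values was not tested.

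The transcription factor genes themselves did not separate. Tfeb reached 7.47, 5.32, 6.94 and 8.38 CPM with HCME-sEVs and 5.65, 9.21 and 6.20 CPM with LME-sEVs. Tfe3 reached 26.5, 23.1, 20.5 and 18.4 CPM with HCME-sEVs and 24.5, 22.7 and 21.5 CPM with LME-sEVs. The 95% intervals of the log2 fold changes were -0.50 to 0.50 for Tfeb and -0.25 to 0.34 for Tfe3, so a moderate change of Tfeb in either direction was not detectable at this depth, and the mRNA level does not report the location or phosphorylation of these proteins.

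**Figure D2:**
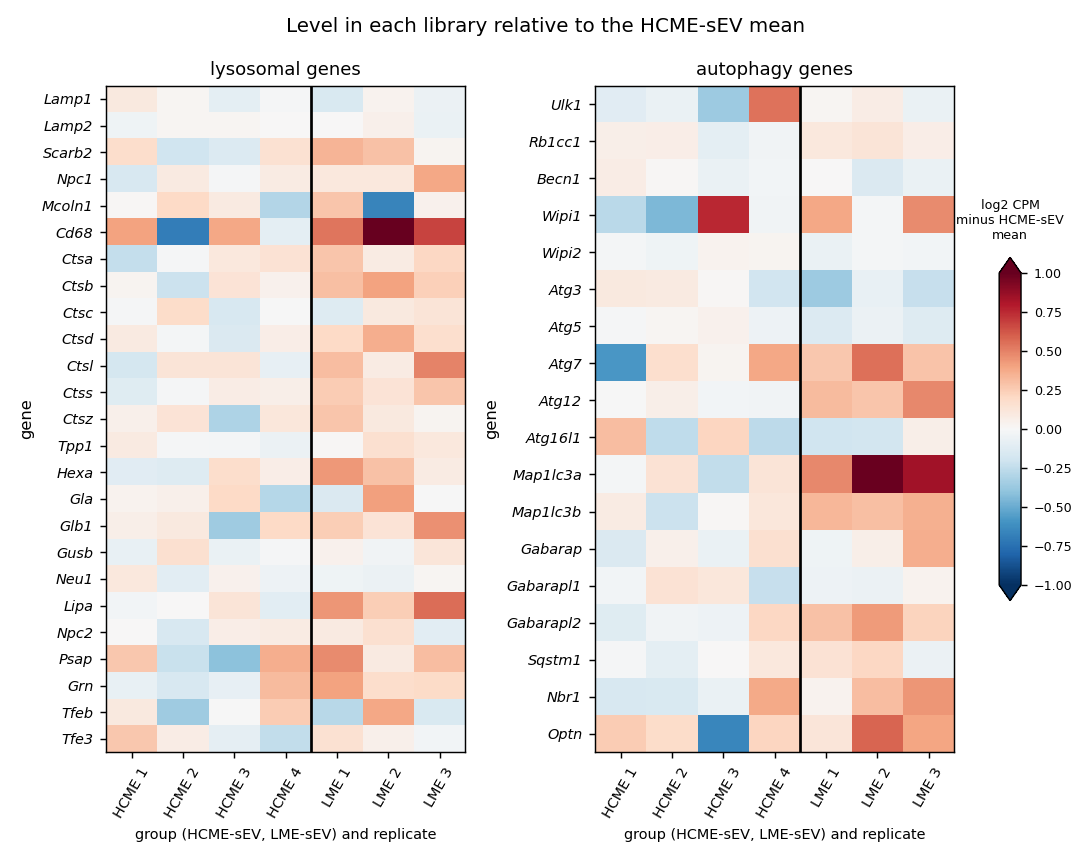
Log2 CPM of each tested gene (rows) in each library (columns: 4 HCME-sEV, 3 LME-sEV, parted by the black line), minus the mean of the HCME-sEV libraries. The colour scale runs from -1 (blue) to 1 (red), and values beyond it take its end colours. The 3 LME-sEV columns are red for Lipa, Atg12, Map1lc3b, Gabarapl2 and, without a call, for genes such as Map1lc3a and Ctsb, while single HCME-sEV libraries stand out for Wipi1, Ulk1, Atg7 and Optn.

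Among the 18 autophagy genes, 11 had a log2 fold change above 0, with a median of 0.12 and a range of -0.22 to 0.87. The LME-sEV libraries were all above the HCME-sEV libraries for 4 (Map1lc3a, Map1lc3b, Gabarapl2 and Atg12) and all below for 1 (Atg5), to be read against the 9.49% and 10.8% of all genes. The summed level was 899, 889, 892 and 931 CPM with HCME-sEVs and 952, 987 and 967 CPM with LME-sEVs, again without overlap. By edgeR, 2 of 5 ATG8 genes, 1 of 5 conjugation genes, 0 of 5 initiation genes and 0 of 3 receptors were called. These small counts are to be read against the 3.75% called higher over all genes, and differences between these roles were not tested.

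The ATG8 proteins are attached to the lipid of the growing autophagosome membrane and bind the receptors that bring in cargo. Map1lc3b (ENSMUSG00000031812.16, chr8:121590361-121598760, plus strand), which encodes LC3B, reached 96.6, 78.8, 92.3 and 98.9 CPM with HCME-sEVs (91.7 ± 9.0, SD, n = 4) and 115, 113 and 117 CPM with LME-sEVs (115 ± 2.05, SD, n = 3). All LME-sEV libraries were higher, and they were nearly equal to each other. Its log2 fold change was 0.32 with an SE of 0.089 (edgeR FDR = 0.0261), and DESeq2 gave an adjusted p of 0.0316. The FDR rose to 0.108 without HCME-sEV library 2, 0.0646 without LME-sEV library 1, 0.0843 without LME-sEV library 2 and 0.111 without LME-sEV library 3. Exons of Zcchc14 overlap Map1lc3b on the opposite strand, and the strand setting of the counting is not given in the sources used here.

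Gabarapl2 (ENSMUSG00000031950.7, chr8:111940703-111953612, plus strand), which encodes the ATG8 protein GATE-16, reached 79.3, 84.1, 83.5 and 99.6 CPM with HCME-sEVs (86.6 ± 8.94, SD, n = 4) and 106, 116 and 101 CPM with LME-sEVs (108 ± 7.73, SD, n = 3). The groups did not overlap, but the highest HCME-sEV library and the lowest LME-sEV library were almost level. Its log2 fold change was 0.31 with an SE of 0.094 (edgeR FDR = 0.0406; DESeq2 adjusted p = 0.0600). Leaving out HCME-sEV library 4 gave an edgeR FDR of 0.0170, and leaving out any of the other 6 ended the call, with 0.0861, 0.110 and 0.0630 for HCME-sEV libraries 1 to 3 and 0.0833, 0.216 and 0.0714 for LME-sEV libraries 1 to 3. The promoter windows of these called ATG8 genes lie at chr8:121590188-121590487 and chr8:111940453-111940752, both on the plus strand, and neither held the letters CACGTG.
Map1lc3b: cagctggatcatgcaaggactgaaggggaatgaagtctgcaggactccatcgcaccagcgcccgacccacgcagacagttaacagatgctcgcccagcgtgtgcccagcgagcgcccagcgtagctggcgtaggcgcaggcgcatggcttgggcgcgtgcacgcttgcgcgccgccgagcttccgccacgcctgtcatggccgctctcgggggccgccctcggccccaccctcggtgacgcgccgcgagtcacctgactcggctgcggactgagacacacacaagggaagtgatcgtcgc
Gabarapl2: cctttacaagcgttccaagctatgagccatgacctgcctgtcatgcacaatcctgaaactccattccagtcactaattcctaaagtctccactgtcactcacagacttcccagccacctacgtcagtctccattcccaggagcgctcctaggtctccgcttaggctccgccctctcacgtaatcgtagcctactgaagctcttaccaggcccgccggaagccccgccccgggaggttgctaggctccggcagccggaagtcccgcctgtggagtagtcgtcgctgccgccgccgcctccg

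The other ATG8 genes differed from each other. Map1lc3a, the LC3A gene, had 9 to 29 counts per library and lay at 2.40 to 3.29 CPM with HCME-sEVs and 4.30 to 6.29 CPM with LME-sEVs. The groups did not overlap and the log2 fold change was 0.87 with an SE of 0.29, short of a call (edgeR FDR = 0.0673). Gabarap had a log2 fold change of 0.14 (edgeR FDR = 0.508). Gabarapl1 reached 45.3, 51.2, 50.1 and 39.3 CPM with HCME-sEVs and 44.7, 44.5 and 47.5 CPM with LME-sEVs, with the LME-sEV libraries inside the HCME-sEV range and a log2 fold change of -0.02 (95% interval -0.25 to 0.20). The difference between these paralogs was not tested. Over the 5 ATG8 genes the summed level was 268 to 296 CPM with HCME-sEVs and 317 to 334 CPM with LME-sEVs.

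Conjugation of ATG8 proteins uses the enzymes Atg7 and Atg3 and the Atg12-Atg5 conjugate bound to Atg16l1. Atg12 (ENSMUSG00000032905.5), the ubiquitin-like partner, reached 38.5, 40.3, 37.9 and 37.7 CPM with HCME-sEVs (38.6 ± 1.18, SD, n = 4) and 48.2, 47.0 and 53.9 CPM with LME-sEVs (49.7 ± 3.71, SD, n = 3). The HCME-sEV libraries were tightly grouped and all LME-sEV libraries were above them, with a log2 fold change of 0.37 and an SE of 0.10 (edgeR FDR = 0.0264). The FDR rose to 0.0600 without HCME-sEV library 4, 0.0617 without LME-sEV library 2 and 0.166 without LME-sEV library 3, and DESeq2 gave an adjusted p of 0.0695. Atg5, the protein to which Atg12 is joined, reached 51.6, 52.7, 53.6 and 50.3 CPM with HCME-sEVs and 47.4, 49.9 and 47.5 CPM with LME-sEVs. All its LME-sEV libraries were lower, by a small and uncalled amount (log2 fold change -0.11, SE 0.094, edgeR FDR = 0.542).

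Atg7, the activating enzyme, reached 10.8, 18.5, 16.8 and 21.7 CPM with HCME-sEVs and 19.9, 24.3 and 20.2 CPM with LME-sEVs. HCME-sEV library 1 was far below the rest and the groups overlapped (log2 fold change 0.34, SE 0.18, edgeR FDR = 0.269). Atg3, the conjugating enzyme, lay at 65.0 to 79.7 CPM with HCME-sEVs and 57.8 to 70.6 CPM with LME-sEVs, with a log2 fold change of -0.22 (unadjusted p = 0.0397, edgeR FDR = 0.193). Atg16l1 stood at -0.12 (edgeR FDR = 0.743).

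Initiation and nucleation genes showed no call in either direction by edgeR, DESeq2 or limma-voom, and none of the 5 reached an unadjusted p under 0.05 by edgeR. Ulk1, the kinase that starts autophagy, reached 13.7, 14.2, 11.5 and 21.9 CPM with HCME-sEVs and 15.1, 15.7 and 14.2 CPM with LME-sEVs. HCME-sEV library 4 was the high value; the log2 fold change was -0.04 with all libraries and 0.18 without it. Becn1, the Beclin 1 gene, reached 112, 107, 101 and 105 CPM with HCME-sEVs and 107, 96.0 and 102 CPM with LME-sEVs, with a log2 fold change of -0.07 and a 95% interval of -0.24 to 0.10. Rb1cc1 (FIP200, a partner of ULK1) and the lipid-binding genes Wipi1 and Wipi2 had log2 fold changes of 0.10, 0.25 and -0.04; Rb1cc1 has a near-identical 3′ end in Gm13961, so its count is uncertain.

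Among the cargo receptors, Sqstm1 (p62) reached 122, 115, 124 and 133 CPM with HCME-sEVs and 137, 143 and 118 CPM with LME-sEVs. The groups overlapped, with a log2 fold change of 0.10 and a 95% interval of -0.08 to 0.28 (edgeR FDR = 0.549). Nbr1 stood at 0.27 (edgeR FDR = 0.289) and Optn, with 4 to 14 counts per library, at 0.40 with an SE of 0.39 (edgeR FDR = 0.602).

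**Figure D3:**
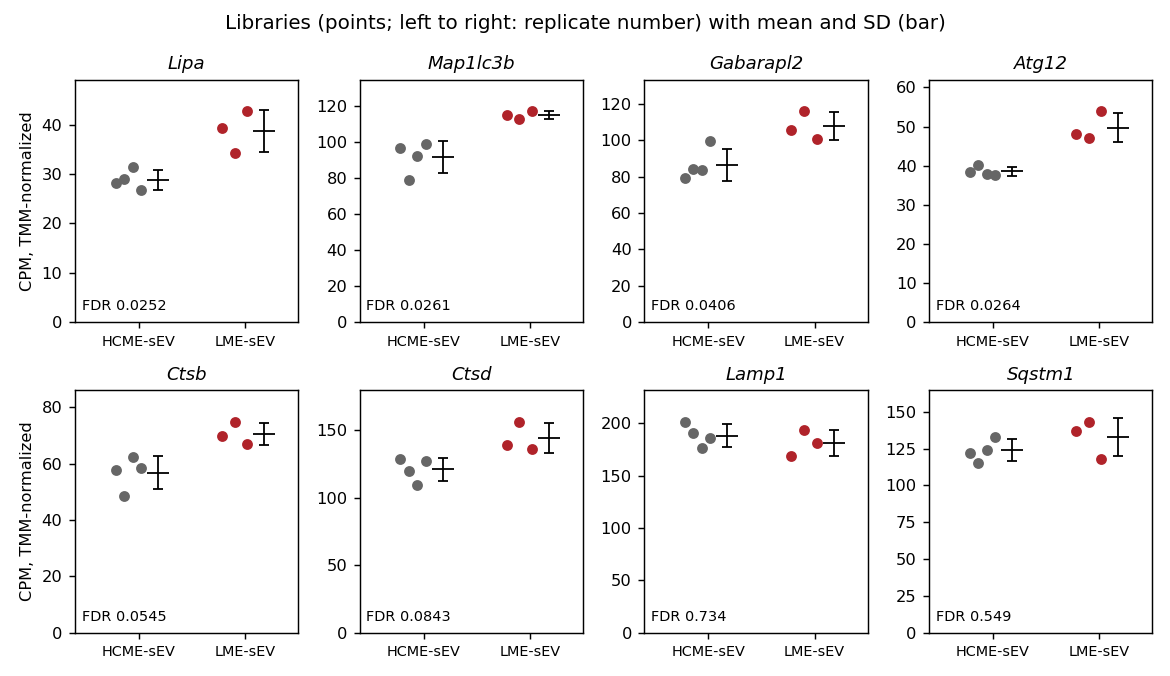
CPM (TMM-normalized, vertical axes from 0) of 8 genes in each library (points, ordered by replicate number within a group) with the mean and SD beside them; HCME-sEV, n = 4; LME-sEV, n = 3; the FDR is that of edgeR. Lipa, Map1lc3b, Gabarapl2 and Atg12 (upper row) and Ctsb and Ctsd separate the groups by library, whereas Lamp1 and Sqstm1 overlap.

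The 7 further gene lists place these genes in their pathways. Calls in these lists are to be read against the 3.75% of all genes called higher and 5.21% called lower. At an unadjusted p under 0.05, 1316 of all 12623 genes were higher and 1548 lower by edgeR. By median log2 fold change, the list closest to the lysosomal genes (0.19) was other lysosomal hydrolases and proteins (0.20). Of its 39 genes 37 were tested, with 30 above 0, 5 called higher and 0 lower. The share called higher was 13.5%, against 4% of the lysosomal genes. At an unadjusted p under 0.05, 9 were higher and 0 lower by edgeR. Gm2a, the activator protein for ganglioside breakdown, reached 57.1, 58.5, 67.8 and 65.2 CPM with HCME-sEVs and 74.0, 82.9 and 85.5 CPM with LME-sEVs (log2 fold change 0.38, SE 0.095, edgeR FDR = 0.0151). Manba, beta-mannosidase, reached 2.41, 3.55, 2.13 and 2.79 CPM against 4.84, 5.84 and 6.01 CPM, a log2 fold change of 1.03 on 8 to 31 counts per library (SE 0.30, edgeR FDR = 0.0326). Both groups of libraries were clear of each other for each of these genes. Laptm5, a lysosomal membrane protein of blood cells that promotes the breakdown of T-cell receptor chains, reached 666, 660.1, 730.3 and 817 CPM with HCME-sEVs and 821, 863 and 933 CPM with LME-sEVs (log2 fold change 0.28, edgeR FDR = 0.0386). Idua, the iduronidase, reached 4.34, 3.80, 5.07 and 6.52 CPM against 8.07, 9.21 and 8.53 CPM (0.80, edgeR FDR = 0.0388), with exons of Dgkq and Slc26a1 on the opposite strand. The carboxypeptidase gene Scpep1 reached 89.6, 86.4, 87.5 and 91.3 CPM against 104, 122 and 101 CPM (0.29, edgeR FDR = 0.0399). None of these 5 calls held in every fit with a library left out. The edgeR FDR of Gm2a was 0.0548 without HCME-sEV library 2, 0.0810 without LME-sEV library 2 and 0.0990 without LME-sEV library 3. For Laptm5 it was 0.0554 and 0.145 without HCME-sEV libraries 1 and 2, and 0.120 and 0.207 without LME-sEV libraries 2 and 3. Manba passed only without HCME-sEV library 2 or LME-sEV library 1, and reached 0.0712, 0.0600 and 0.0637 without HCME-sEV libraries 1, 3 and 4 and 0.117 and 0.138 without LME-sEV libraries 2 and 3. Idua passed only without HCME-sEV library 3 or 4, and reached 0.0816 and 0.116 without HCME-sEV libraries 1 and 2 and 0.0611, 0.15 and 0.119 without LME-sEV libraries 1 to 3. Scpep1 passed only without HCME-sEV library 1, and reached 0.109, 0.0549 and 0.0600 without HCME-sEV libraries 2 to 4 and 0.0569, 0.257 and 0.0615 without LME-sEV libraries 1 to 3. DESeq2 called 2 of the 5, Gm2a and Laptm5.

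Other autophagy genes gave 4 calls among 26 of 28 tested, all higher (15.4%, against 3.75% over all genes), around a median log2 fold change of 0.01. By edgeR 0 were called lower, and 1 was lower at an unadjusted p under 0.05. Tecpr1, which joins autophagosomes to lysosomes, had the smallest FDR of any gene of these pathways: 46.0, 48.4, 54.1 and 53.8 CPM with HCME-sEVs and 68.6, 79.3 and 77.2 CPM with LME-sEVs, a log2 fold change of 0.57 with an SE of 0.097 (edgeR FDR = 0.0011). This call held without any single library, at an FDR of at most 0.0155. Atg16l2, the paralog of Atg16l1, reached 60, 55.2, 50.1 and 64.7 CPM against 75.3, 80.7 and 73.5 CPM (0.41, edgeR FDR = 0.0130, and 0.0868 without LME-sEV library 2); exons of Fchsd2 lie opposite. Ulk2, the paralog of Ulk1, reached 20, 17.7, 24.3 and 19.3 CPM against 29.9, 26.1 and 31.0 CPM (0.52, edgeR FDR = 0.0201). The gene for the Vps15 subunit of the nucleation complex, Pik3r4, reached 26.0, 26.1, 25.1 and 24.4 CPM against 38.7, 33.3 and 31.6 CPM (0.43, edgeR FDR = 0.0247). For Ulk2 the FDR was 0.0718 and 0.0536 without HCME-sEV libraries 2 and 4, and 0.0569 and 0.114 without LME-sEV libraries 1 and 3. For Pik3r4 it was 0.0520 and 0.0606 without HCME-sEV libraries 2 and 4, and 0.113 and 0.0754 without LME-sEV libraries 1 and 2. DESeq2 called 3 of the 4, all but Pik3r4.

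Selective autophagy receptors beyond Sqstm1, Nbr1 and Optn moved in both directions, with 14 of 15 tested, 1 called higher and 1 lower. Over all genes, 3.75% were called higher and 5.21% lower. Calcoco1, a receptor for turnover of the endoplasmic reticulum, reached 18.1, 18.5, 21.3 and 20.5 CPM with HCME-sEVs and 29.6, 38.9 and 28.5 CPM with LME-sEVs. This was a log2 fold change of 0.72 with an SE of 0.14 (edgeR FDR = 0.00256), called without any single library at an FDR of at most 0.0390. Bnip3, a mitochondrial receptor induced by hypoxia, fell from 127, 104, 108 and 95.9 CPM to 79.9, 84.9 and 84.0 CPM, a log2 fold change of -0.39 with an SE of 0.096 (edgeR FDR = 0.0141). Its 3′ end is shared almost letter for letter by 5 annotated copies, so its count is uncertain, and the FDR was 0.0609, 0.0592 and 0.0614 without LME-sEV libraries 1 to 3.

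The remaining lists gave no call by edgeR. Their counts at an unadjusted p are to be read against those over all genes given above. Of 16 tested genes of the vacuolar ATPase, the proton pump that acidifies lysosomes, 0 were called, with 1 higher and 2 lower at an unadjusted p under 0.05 and a median log2 fold change of -0.07. Of 24 genes of sorting to lysosomes 0 were called, with 2 higher and 3 lower at that p and a median of 0.00. For mTORC1 and nutrient sensing at the lysosome, the pathway that holds TFEB in the cytoplasm when amino acids are plentiful, the counts were 0 of 22 called and 3 higher and 3 lower, with a median of -0.01. For the secretory lysosome machinery of cytotoxic T cells they were 0 of 10 called and 2 higher and 0 lower, with a median of 0.04. Cd63 and Ctsw belong both to this list and to the other lysosomal hydrolases and proteins. DESeq2 called no gene of these 4 lists either.

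**Figure D4:**
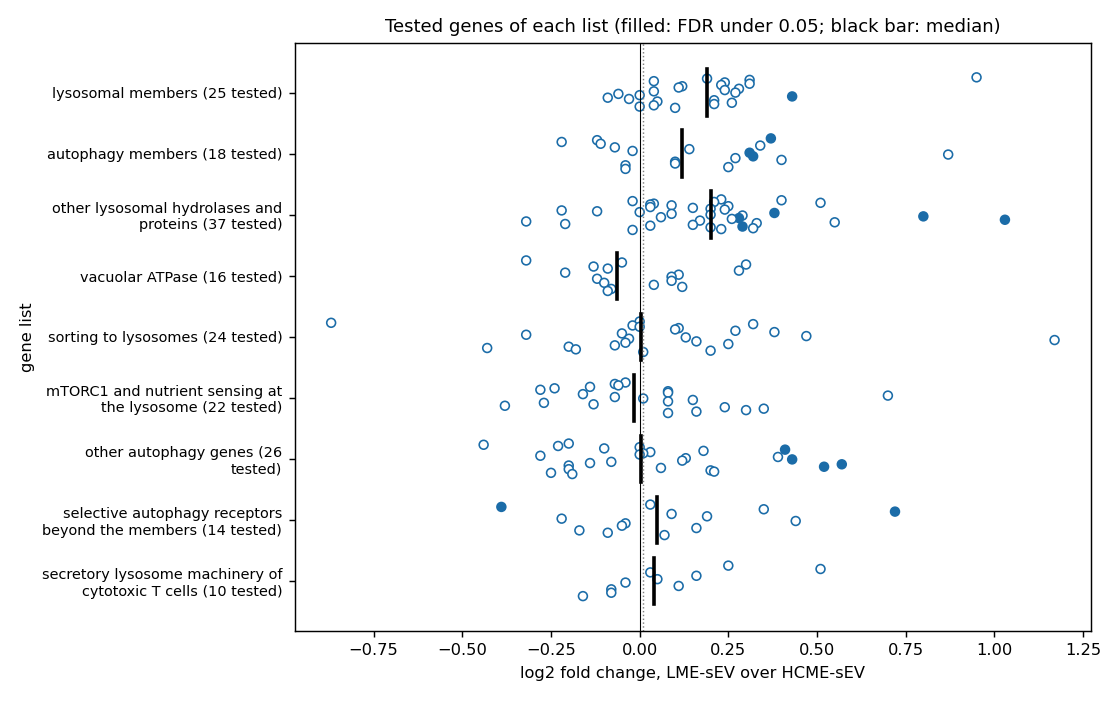
Log2 fold change (horizontal axis) of each tested gene (circles, filled where the edgeR FDR was under 0.05) of the lysosomal and autophagy genes and 7 further lists; black bar, median of the list; dotted line, median of all genes tested. The medians of the lysosomal genes (0.19) and of other lysosomal hydrolases and proteins (0.20) lie to the right of the vacuolar ATPase (-0.07), sorting (0.00) and mTORC1 (-0.01) lists.

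Markers of other cells also differed between the groups, and cells such as B cells, platelets and basophils have lysosomes of their own. The marker calls below are to be read against the 3.75% of all genes called higher. Of 14 B-cell markers 8 were tested and 2 were called higher, Cd74 at 12.1 to 14.4 CPM with HCME-sEVs and 17.2 to 24.7 CPM with LME-sEVs, and Ighm at 220 to 263 CPM and 299 to 325 CPM (edgeR FDR = 0.0400 and 0.0043), while Cd79a had at most 2 counts. The summed level of the B-cell markers, most of it from Ighm, was 262 to 306 CPM with HCME-sEVs and 350 to 381 CPM with LME-sEVs. Of 10 erythroid and platelet markers 8 were tested and Hba-a1, Pf4 and Ppbp were called higher, with sums of 74.9 to 183 CPM and 159.6 to 207 CPM. Of 10 markers of basophils, mast cells and eosinophils 8 were tested and Mcpt8, Prg2 and Prss34 were called higher, with sums of 11.8 to 43.6 CPM and 37.2 to 56.6 CPM. Of 4 CD4 T-cell markers 1 was tested and called higher, Zbtb7b, and of 5 NK-cell markers 1 was tested and not called. Among 9 markers of CD8+ T cells, Cd3e and Cd3g were themselves called higher, with log2 fold changes of 0.36 and 0.49. With each library left out in turn, Prg2 and Ighm were called in 7 of 7 fits, Cd3e and Prss34 in 5, Mcpt8 and Ppbp in 4, Cd3g in 3, Cd74, Zbtb7b and Pf4 in 2 and Hba-a1 in 1. The part of any of these in the lysosome and autophagy values was not tested.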

How the data were processed

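Per the labels and the study's methods, RNA from 7 samples of sorted CD8+ T cells was made into QuantSeq 3′ FWD libraries with molecular identifiers, so reads come from transcript ends. Per the submitters' processing notes, the authors trimmed reads with cutadapt 2.10, mapped them with STAR 2.5.3a to GRCm38, collapsed duplicates with UMI-tools 1.0.0 and counted with featureCounts (Subread 2.0.0). The annotation release and strand setting are not given in the sources used here. The deposited values are raw counts per gene, so collapsing of identifiers limits PCR duplication, and intervals cover the spread between libraries as fitted.

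Groups followed the labels; a legend of the study gives the group sizes the other way round. Counts were tested with edgeR 4.0.16 (R 4.3.3): genes whose counts averaged 5 or more across libraries (12623 of 55367), TMM scaling, quasi-likelihood F test, Benjamini-Hochberg adjustment over all tested genes, threshold 0.05. The fit was tested on simulated counts. It called 52% of genes given a log2 fold change of 0.5 in either direction and 84% of those given 1.5, so small changes can be missed. CPM use TMM-scaled totals of the tested genes. The members and lists were chosen with earlier results of these data known, so no set test or p over a list was computed. Named genes were all 44 members, with values in every library for those called and for 15 chosen by role, and up to 6 called genes of each further list, smallest FDR first. Genes named for separated groups, few counts or as markers were added after values were seen. Alternatives were 3 other scalings, 2 other filters, DESeq2 1.42.0, limma-voom (limma 3.58.1), a replicate block and each library left out. Deviations of same-numbered libraries from their group means correlated weakly (r = 0.07, 0.15 and 0.03), against r from -0.21 to 0.08 for other pairs. No replicate pair agreed within counting noise. Gene positions came from GENCODE vM21 (GRCm38), and promoter windows from RefSeq (GRCm38.p6), as no genome sequence was used. Near-identical 3′ ends (95% over at least 200 of the last 300 bases) were found with BLAST 2.17.0. Among members not noted above for it, annotated exons of other genes also overlap Ctsl (Gm49230) and Glb1 (Tmppe) on the same strand. On the opposite strand they overlap Lamp1, Npc1, Ctsa, Ctsl, Ctsz, Hexa, Grn, Rb1cc1, Becn1, Gabarapl1, Sqstm1 and Optn, and the called genes Scpep1 and Bnip3.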

Additional observations from a re-analysis of the deposited data

Results flagged for a closer look

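In 3 of 56 values examined (the tested members, their summed levels and the called genes of the further lists), a single HCME-sEV library of the 4 stood apart by Dixon's 95% criterion, and chance alone flags about 2.8 of 56. For Grn the ratio of gap to range was 0.852, with HCME-sEV library 4 the highest at 37.2 CPM. For Nbr1 it was 0.843, with the same library the highest at 34.2 CPM. For Optn it was 0.904, with HCME-sEV library 3 the lowest at 1.07 CPM, where 3 counts correspond to 0.800 CPM. None of the 3 genes was called by edgeR.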

How the results depend on the processing

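The number of lysosomal genes called higher (1) became 2 with upper-quartile scaling, 4 with scaling by library size only, 2 with filterByExpr, 0 with DESeq2, 5 with the replicate block, and 0 to 2 without single libraries. The number of autophagy genes called higher (3) became 1 with DESeq2, 5 with the replicate block, and 0 to 2 without single libraries. Fits without a library hold fewer samples, and over all genes they called 168 to 544 higher against 473. No member was called lower under any of the 15 alternatives. The labels do not say whether libraries with the same replicate number belong together (r = 0.07, 0.15 and 0.03), so the block is given only here. Replicate 4 has only an HCME-sEV library, so the block gives that library a term of its own. HCME-sEV library 4 therefore does not enter the group difference in that fit. Over all genes the block moved the calls to 594 higher and 860 lower. The cause of these shifts was not tested.

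Of 645 member values under the alternatives, 577 kept their direction and side of the threshold, 20 lost and 12 gained a call, and 36, in 11 uncalled members, changed sign. Log2 fold changes that changed sign were 0.02 (upper quartile), 0.04 (library size only) and 0.00 (no filter on low counts and filterByExpr) for Lamp2. For Tfeb they were 0.00 (DESeq2's size factors and DESeq2), 0.02 (upper quartile), 0.04 (library size only), 0.01 (no filter and filterByExpr) and 0.09 (replicate block). With library size only they were 0.02 for Neu1, 0.00 for Ulk1, 0.01 for Wipi2 and 0.02 for Gabarapl1, and with the replicate block -0.02 for Tfe3 and 0.19 for Ulk1. Without single libraries the values ran from -0.03 to 0.03 for Lamp2, -0.27 to 0.16 for Mcoln1, -0.02 to 0.11 for Ctsc, -0.07 to 0.22 for Gla, -0.06 to 0.01 for Neu1, -0.01 to 0.12 for Npc2, -0.24 to 0.12 for Tfeb, -0.04 to 0.14 for Tfe3, -0.16 to 0.18 for Ulk1 and -0.10 to 0.02 for Gabarapl1. Depth limits Cd68, Map1lc3a, Optn, Mcoln1 and Lgmn, which had under 30 counts in every library.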

Other observations

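Some ratios and uncalled genes were singled out after the values were seen and are given as descriptions. The ratio of Atg12 to Atg5 CPM, whose proteins form a conjugate, was 0.748, 0.764, 0.706 and 0.750 in the HCME-sEV libraries and 1.02, 0.941 and 1.13 in the LME-sEV libraries. The ratio of Atg16l2 to Atg16l1 was 2.74, 3.76, 2.44 and 4.41 with HCME-sEVs and 4.91, 5.2 and 3.99 with LME-sEVs, so the groups overlapped, as they did for Ulk2 to Ulk1 (0.883 to 2.12 against 1.66 to 2.19). Beside the fall of Bnip3, its paralog Bnip3l, the receptor that clears mitochondria in maturing red cells, had a log2 fold change of 0.35. The mitophagy kinase gene Pink1 stood at 0.44. Neither was called (edgeR FDR = 0.0543 and 0.053), and in both all LME-sEV libraries lay above the HCME-sEV libraries. Of the 14 tested genes of their list, 4 had all LME-sEV libraries above and 2 all below. Over all genes these patterns were found in 9.49% and 10.8%.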
